A study of Mus musculus with 4 samples.

Results

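The 9 genes described here are C1ra, C1s1, C4b, C3, Cfb, Cfd, Serping1, Cd55 and C1qtnf2, taken by symbol from the 55536 rows of the deposited expression table. All 9 symbols had 1 row each. RNA was sequenced from the stromal vascular fraction, the cells of fat tissue other than the fat cells, of inguinal white adipose tissue from wild-type male mice at postnatal day 21. There were 4 libraries, each pooled from 3 mice, with 1 library for each combination of parents and drink. The offspring groups are named LnF1 and ObF1 in a series about obesity of the parents, and the drinks were water and 1,3BD, as the labels spell it. No group had a replicate, and nothing measured the spread between mice. Where 4 values stand in a row without further words, they are LnF1 with water, then LnF1 with 1,3BD, and after these ObF1 with water and with 1,3BD.

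Complement is a cascade of blood and tissue proteins that tags and lyses targets. In the classical pathway, the recognition protein C1q carries the proteases C1r and C1s, of which C1s cleaves C4 and C2. In the alternative pathway, factor D cleaves factor B. Both routes cleave C3, whose fragment C3b coats surfaces and starts the terminal complex. Host cells are protected by C1 inhibitor, which blocks C1r and C1s, and by membrane proteins such as CD55 and CD46. These act on the C3-cleaving enzymes or on their parts. In fat, factor D is known as adipsin, a product of mature adipocytes, and fibroblasts of many tissues make C1r, C1s, C3 and C1 inhibitor. C1qtnf2 is placed with these genes by name only: its product has a collagen-like stretch and a C1q-type domain, as adiponectin has, and is no part of the cascade.

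Values are read counts per library size after the authors' scaling, called scaled CPM below. Whole reads could be recovered from them, 24586827 to 26000090 per library, so that 1 read was worth 0.0359 to 0.0434 CPM. A gene with 0 reads can be given an upper limit of 3 reads, 0.108 to 0.130 CPM. Such limits and the intervals below cover counting error only, since PCR copies were not separated. The labelled cell fraction was checked by marker lists. All 8 adipose progenitor markers were above 3 reads in at least 3 libraries, with summed levels of 3598, 1867, 4538 and 2446 CPM. The 6 white blood cell markers summed to at most 0.412 CPM, with Cd3e and S100a9 at 0 reads. The 6 mature fat cell markers summed to 1.83, 14.2, 0.739 and 4.72 CPM, higher with 1,3BD. Of these, 4 stayed under 1 CPM, Adipoq and Lep among them with 0 reads throughout, so the sum rests on Plin1 and Plin4. The 5 mesothelial markers summed to 55.4, 3.16, 89.0 and 9.56 CPM, lower with 1,3BD, and 4 of them stayed under 1 CPM. The fraction was thus not shown to be free of other cell types. Because these are bulk samples, fewer cells of a type and less RNA per cell cannot be told apart.

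The first question was how 1,3BD differed from water. C1ra, C1s1, C4b, C3, Serping1 and C1qtnf2 were lower with 1,3BD and Cd55 was higher, in LnF1 and in ObF1 alike. Cfb and Cfd had almost no reads in any library. Of the 9 genes, 7 passed the filter of at least 1 CPM in at least 2 libraries, and in limma, fitted across all 12838 genes that passed, 6 of the 7 fell and 1 rose. Over all genes 24.8% were called lower and 19.2% higher, so calls in this comparison were common. The share of all genes whose water and 1,3BD libraries do not overlap is not given here, so that order alone marks no gene out. The median log2 difference was -1.58 over the 7 genes and -0.0597 over all genes tested. C1qtnf2 passed the filter through the water libraries alone and therefore had to differ, and the other 6 reached 1 CPM in all 4 libraries. With library totals in place of the authors' factors, which shifts the median of all genes by 0.25 in log2 units, the calls over all genes turned from 2466 higher and 3189 lower to 3687 higher and 2270 lower, while each of the 7 genes kept its direction and its call.

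**Figure D1:**
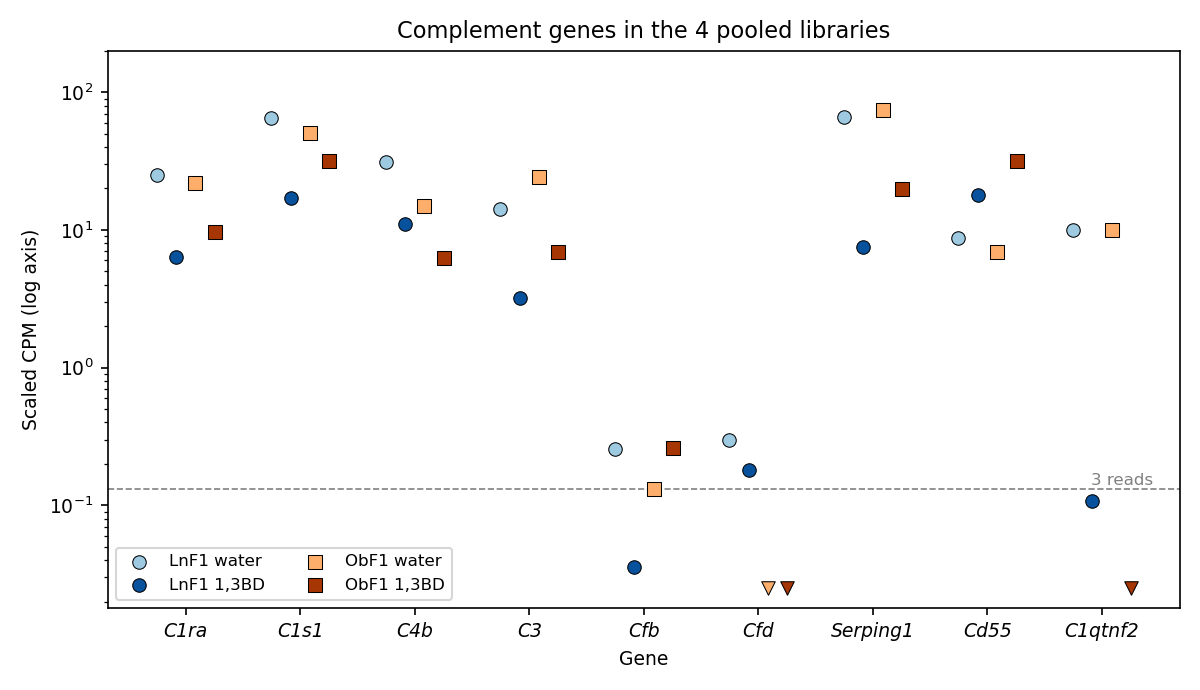
Scaled CPM (log axis) of the 9 genes in each of the 4 pooled libraries, 1 point per library. The dashed line marks 3 reads (0.130 CPM, the highest such level of the 4 libraries), and triangles at the foot mark 0 reads. Both 1,3BD libraries lie below both water libraries for C1ra, C1s1, C4b, C3, Serping1 and C1qtnf2, and above them for Cd55. The share of all genes with such an order is not given.

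The proteases of the classical pathway came first. C1ra, which encodes C1r, stood at 25.2 CPM in LnF1 water, 6.38 in LnF1 1,3BD, 22.0 in ObF1 water and 9.64 in ObF1 1,3BD. Both water libraries were above both 1,3BD libraries. The log2 difference, 1,3BD minus water, was -1.58 (SE 0.27, limma adjusted p = 0.000976). C1s1, which encodes C1s, the protease that cleaves C4 and C2, stood at 65.0, 16.96, 50.7 and 31.5 CPM. Again the groups did not overlap, and the log2 difference was -1.31 (SE 0.29, limma adjusted p = 0.00596). The fall of C1s1 was 3.83-fold in LnF1 (95% counting interval 3.45 to 4.26) and 1.61-fold in ObF1 (1.47 to 1.76). For C1ra these folds were 3.95 (3.34 to 4.70) and 2.29 (1.96 to 2.67). Whether the fall differs between LnF1 and ObF1 could not be tested, since 4 libraries leave nothing to set such a difference against.

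C1ra and C1s1 lie tail to tail on chromosome 6 of mm10, at 124512405 to 124523443 on the plus strand and 124530345 to 124542359 on the minus strand, with 6901 bases between them. After each gene's mean was removed, their log2 values over the 4 libraries were 0.36 apart (Euclidean distance), the smallest distance of the 21 pairs among the 7 tested genes. C1rl, a related protease gene that lies beside C1ra, stood at 14.9, 13.6, 21.3 and 14.7 CPM and did not pass (log2 -0.33, SE 0.25, limma adjusted p = 0.290). The near-identical copies could have taken reads: 48.0% of the 50-base words of the C1ra transcript also occur in C1rb, and 24.3% of those of C1s1 occur in C1s2. C1rb was counted at up to 0.0434 CPM and C1s2 at up to 0.255 CPM, so the levels of C1ra and C1s1 are uncertain by what the unstated counting did with shared reads. The antisense gene Gm16567, which overlaps 18.4% of the exon bases of C1s1, had 0 reads.

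Downstream of C1s, C4b encodes the complement protein C4, whose activated fragment joins C2 in the enzyme that cleaves C3. C4b (chromosome 17, 34728380 to 34743882, minus strand) stood at 31.0 CPM in LnF1 water, 11.0 in LnF1 1,3BD, 14.9 in ObF1 water and 6.26 in ObF1 1,3BD. LnF1 with water was the highest, and both 1,3BD libraries were below both water libraries. The log2 difference was -1.37 (SE 0.25, limma adjusted p = 0.00132). Of the 50-base words of its transcript 35.2% are shared with the neighbouring copy C4a, which stood at 0.297 to 0.896 CPM. Tnxb, the tenascin gene next to C4b on the opposite strand, went the other way, in LnF1 from 14.9 to 40.3 CPM and in ObF1 from 5.52 to 13.6 (log2 1.36, SE 0.24, limma adjusted p = 0.00118).

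C3, the component on which all routes of activation converge (chromosome 17, 57203970 to 57228136, minus strand), stood at 14.2 CPM in LnF1 water, 3.23 in LnF1 1,3BD, 24.1 in ObF1 water and 6.86 in ObF1 1,3BD. The water libraries were 4.39-fold (95% counting interval 3.47 to 5.61) and 3.51-fold (2.96 to 4.17) above the 1,3BD libraries in LnF1 and ObF1. The log2 difference was -1.95 (SE 0.27, limma adjusted p = 0.000228). None of its 50-base words occurs in another gene. Its neighbours Gpr108 (log2 0.55, SE 0.21, limma adjusted p = 0.0531) and Trip10 (log2 -0.55, SE 0.22, limma adjusted p = 0.0557) did not pass. Of 10238 genes at a mean of at least 5 CPM, the 5 whose 4 values lay nearest to those of C3, after removal of each gene's mean, were Synpo2, Anxa3, Lingo1, Fam20a and Ifit2, at distances of 0.27 to 0.34 on the log2 scale. With 4 libraries that are dominated by the drink, many genes share such a profile.

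Serping1, which encodes C1 inhibitor (chromosome 2, 84765387 to 84775444, minus strand), was the most abundant of the 9 genes per length, at a mean of 17.96 CPM per kb of exon, followed by C1s1 at 13.1 and C1ra at 5.31. It stood at 65.6 CPM in LnF1 water, 7.46 in LnF1 1,3BD, 74.1 in ObF1 water and 19.8 in ObF1 1,3BD. The water libraries were close to each other and far above both 1,3BD libraries. The log2 difference was -2.51 (SE 0.29, limma adjusted p = 0.000141), an 8.80-fold fall in LnF1 (95% counting interval 7.61 to 10.2) and a 3.73-fold fall in ObF1 (3.39 to 4.12). Serping1 per kb was 1.36 and 1.96 times C1s1 per kb with water (LnF1, ObF1), and 0.592 and 0.849 times in the 1,3BD libraries. On this scale the inhibitor transcript was above that of its target protease with water and below it with 1,3BD, a description without a test. The lengths are all annotated exon bases, 2325 for Serping1 and 3129 for C1s1. Their longest coding transcripts have 1768 and 2946 bases, and with these Serping1 would not be below C1s1 in ObF1 1,3BD. At either length the ratio was lower with 1,3BD in both parental groups.

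Cd55 encodes decay-accelerating factor, a membrane protein that takes apart the enzymes that cleave C3, and it was the 1 tested gene of the 9 that rose. Cd55 (chromosome 1, 130439027 to 130462744, minus strand) stood at 8.79 CPM in LnF1 water, 18.1 in LnF1 1,3BD, 6.95 in ObF1 water and 31.8 in ObF1 1,3BD. The groups did not overlap, and the 2 1,3BD libraries lay further apart than the 2 water libraries. The log2 difference was 1.61 (SE 0.30, limma adjusted p = 0.00181), with a 2.06-fold rise in LnF1 (95% counting interval 1.75 to 2.43) and a 4.57-fold rise in ObF1 (3.85 to 5.44). Its copy Cd55b, which shares 13.3% of the 50-base words, had at most 0.0375 CPM. CD55 is also used as a surface mark of interstitial adipose progenitors. Of the 5 markers listed for that cell state, Dpp4, Pi16 and Wnt2 were at most 2.08 CPM. The sum of the 5 was 253 and 270 CPM with water (LnF1, ObF1) and 86.1 and 111 CPM with 1,3BD, the opposite direction to Cd55. Anxa3 alone stood at 112, 31.7, 202 and 51.2 CPM and was the only gene of the 5 called for drink. The sum therefore does not stand for the cell state as a whole. The part of this cell state in the Cd55 values was not tested.

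The genes of the alternative pathway proteases did not enter the test. Cfd, which encodes factor D or adipsin (chromosome 10, 79890853 to 79892655, plus strand), had 7 reads in LnF1 water, 5 in LnF1 1,3BD and 0 in both ObF1 libraries, a highest level of 0.297 CPM. No fold can be read from such numbers, and without the filter the limma log2 difference was -0.27 (SE 0.66, adjusted p = 0.785). The sum of 6 mature fat cell markers was 1.83, 14.2, 0.739 and 4.72 CPM, higher with 1,3BD, while Cfd did not show that order. That sum rests on Plin1 and Plin4 and does not stand for the cell type as a whole. The 5 genes nearest to Cfd by the distance used for C3 were Bmf, Cebpa, Slc27a6, Wdfy1 and Gpc3, at 0.67 to 0.87 in log2 units over the 4 libraries, but this profile rests on 12 reads of Cfd in all.

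Cfb, which encodes factor B (chromosome 17, 34856374 to 34862518, minus strand), had 6, 1, 3 and 7 reads, at most 0.262 CPM. Without the filter its log2 difference was -0.41 (SE 0.67, limma adjusted p = 0.714). This level may not be the level of its RNA. Of the exon bases of Cfb, 79.5% are also annotated as exons of Gm20547, a longer gene on the same strand that spans Cfb and part of C2, and 81.4% of the 50-base words of Cfb occur in it. Gm20547 itself had 0 reads in all 4 libraries. How the counting treated reads that fall in both genes is not given in the sources used here, and its part in the low count of Cfb was not tested. The same holds for C2, which shares 42.8% of its exon bases with other genes of its strand. No such overlap was found for Cfd.

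C1qtnf2 had the largest difference of the 7 tested genes. It is also known as CTRP2, a secreted relative of adiponectin. C1qtnf2 (chromosome 11, 43474276 to 43491525, plus strand) stood at 9.93 CPM in LnF1 water, 0.108 in LnF1 1,3BD and 10.0 in ObF1 water, with 0 reads in ObF1 1,3BD. The 2 water libraries had 234 and 231 reads, against 3 and 0 reads with 1,3BD. In LnF1 the ratio of water to 1,3BD was 92.3 (95% counting interval 31.2 to 451), and in ObF1 water was at least 89.2-fold higher, taking a floor of 3 reads in the 1,3BD library. The limma log2 difference was -6.37 (SE 0.50, adjusted p = 4.67e-06), a value that depends on the pseudocount. It ran from -7.65 to -3.38 over the alternative settings that kept all libraries. Since C1qtnf2 passed the filter through the water libraries alone, it had to differ, and the p-value lends this difference no support.

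Relatives of C1qtnf2 with a C1q-type domain were examined as a list of 17 other genes, of which 6 passed the filter. All 6 fell with 1,3BD, where 24.8% of all genes tested were called lower. Their median log2 difference was -1.87, and C1ql3 passed the filter through the water libraries alone. Called were 3 without LnF1 water, 4 without LnF1 1,3BD or ObF1 water, and 5 without ObF1 1,3BD. The log2 difference was -3.07 (SE 0.33) for C1qtnf3, -2.21 (SE 0.32) for C1qtnf12, -1.97 (SE 0.46) for C1ql3, -1.77 (SE 0.26) for C1qtnf1, -1.47 (SE 0.32) for C1qtnf7 and -1.11 (SE 0.21) for C1qtnf6, each with a limma adjusted p of at most 0.00581. C1qtnf3 went from 41.3 to 3.05 CPM in LnF1, and in ObF1 from 22.8 CPM with water to a level that rests on 112 reads with 1,3BD. C1qtnf6 was the most abundant in CPM, at 165 and 167 with water (LnF1, ObF1) and 94.99 and 62.3 with 1,3BD. Adipoq, the gene of adiponectin, was 1 of 4 genes of this list with 0 reads in every library.

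The rest of the complement system was followed in a list of 51 further genes. Most were scarcely measured: 33 stayed under 1 CPM in all libraries, of which 11 had 0 reads throughout, among them 4 of the 6 components of the terminal complex. Of the 12 that passed the filter, 2 rose and 4 fell with 1,3BD in limma, and 6 did not pass. Over all genes tested 19.2% were called higher and 24.8% lower, so the counts of this list lie near the shares of all genes. Calls dropped from 6 to 2 without ObF1 water and to 3 without any other single library. Their median log2 difference was -0.24, against -0.0597 over all genes tested.

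Cd46, which like Cd55 encodes a membrane inhibitor, rose in LnF1 from 1.23 to 2.51 CPM and in ObF1 from 0.608 to 3.00 (log2 1.57, SE 0.46, limma adjusted p = 0.0162), and did not pass in DESeq2 (adjusted p = 0.0584). In limma, Cd46 also lost its call without LnF1 1,3BD (adjusted p = 0.0637), without ObF1 water (adjusted p = 0.170) and without ObF1 1,3BD (adjusted p = 0.140).

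Among the genes that fell, Cd59a encodes a membrane inhibitor of the terminal complex. It went in LnF1 from 17.3 to 2.69 CPM and in ObF1 from 22.3 to 4.09, or -2.54 in log2 units (SE 0.28, limma adjusted p = 4.62e-05). C2, the partner of C4, went in LnF1 from 2.29 to 0.538 CPM and in ObF1 from 2.26 to 0.300 (log2 -2.28, SE 0.48, limma adjusted p = 0.00300), and it passed the filter through the water libraries alone. C2 fell just short in limma without LnF1 water (adjusted p = 0.0527) and without ObF1 water (adjusted p = 0.0503). Cd59a kept its call whichever library was left out. Masp1, a protease of the lectin pathway, had a small difference (log2 -0.71, SE 0.25, limma adjusted p = 0.0395) that lost its call in 5 of 13 alternatives that kept all libraries and whenever 1 library was left out (limma adjusted p = 0.0738 to 0.587). Cd93, a surface receptor carried by endothelial cells among others, fell as well (log2 -2.01, SE 0.43, limma adjusted p = 0.00327), and the sum of 5 endothelial markers was 7.17, 1.18, 18.6 and 2.70 CPM. Cd93 lost its call in limma without LnF1 water (adjusted p = 0.0685), without LnF1 1,3BD (adjusted p = 0.0911) and without ObF1 water (adjusted p = 0.153). The part of endothelial cells in the Cd93 values was not tested. Cr1l, which encodes the rodent membrane inhibitor Crry, stood at 59.7 to 67.3 CPM and did not pass (log2 -0.0757, SE 0.20, limma adjusted p = 0.781).

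**Figure D2:**
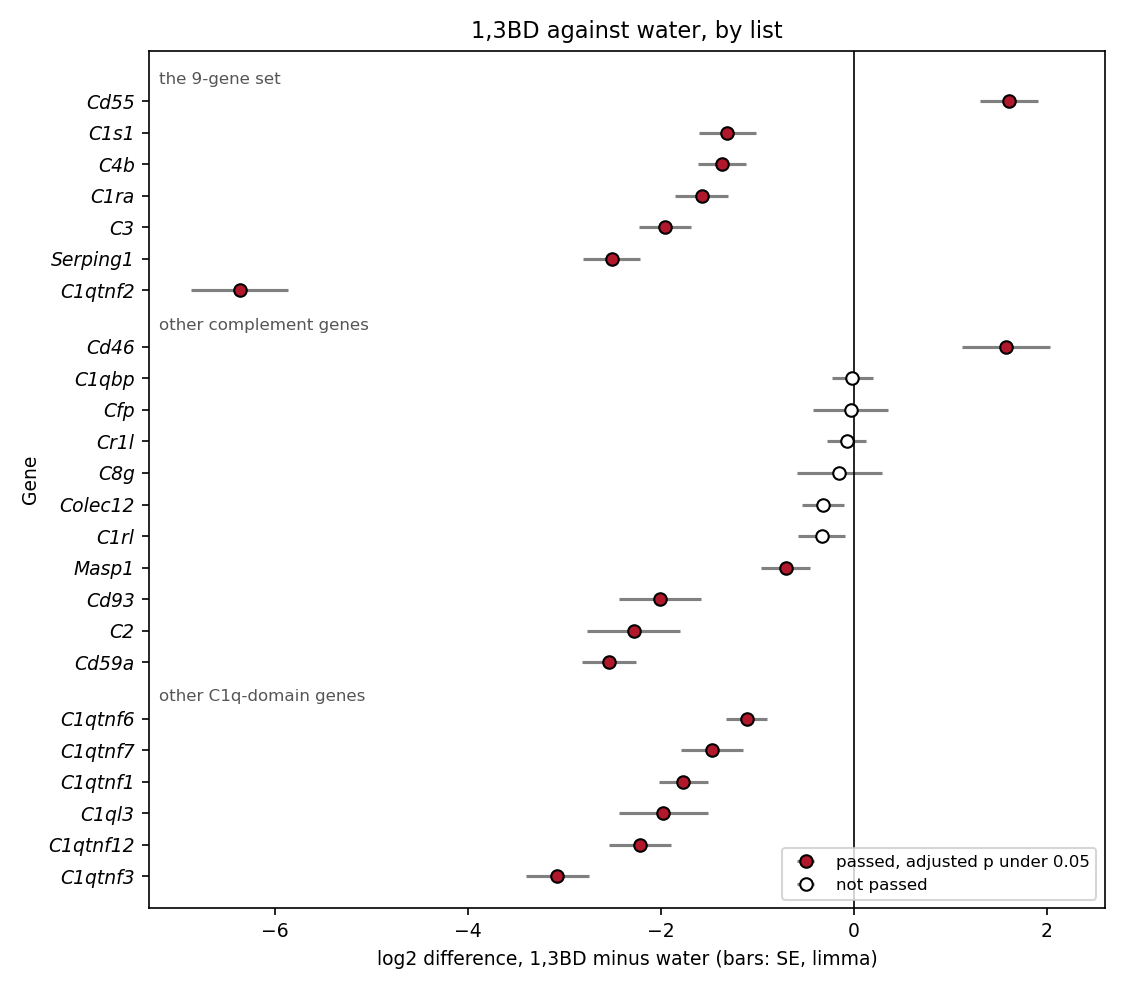
Log2 difference between 1,3BD and water for genes of 3 lists, the 9 genes, other complement genes and C1q-domain relatives, with the SE from limma as bars. Filled points passed at an adjusted p under 0.05. Not every tested gene of the lists is drawn. Of the filled points drawn, Cd55 and Cd46 lie to the right of 0 and the others to the left.

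Levels per length put C3 and the gene of a membrane inhibitor of the enzymes that cleave it side by side. Cd55 stood at 1.81 and 1.43 CPM per kb of exon with water (LnF1, ObF1), where C3 stood at 2.76 and 4.68. With 1,3BD, Cd55 stood at 3.72 and 6.54 and C3 at 0.628 and 1.33 in LnF1 and ObF1. The Cd55 level was 0.657 and 0.306 times that of C3 with water and 5.93 and 4.90 times with 1,3BD. On this scale the order of both genes was turned round in each parental group, a description without a test of its own. The lengths are all annotated exon bases, 4853 for Cd55 and 5143 for C3. Their longest coding transcripts have 2533 and 5136 bases, and with these Cd55 would not be below C3 in LnF1 water. At either length Cd55 was higher relative to C3 with 1,3BD in both parental groups.

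**Figure D3:**
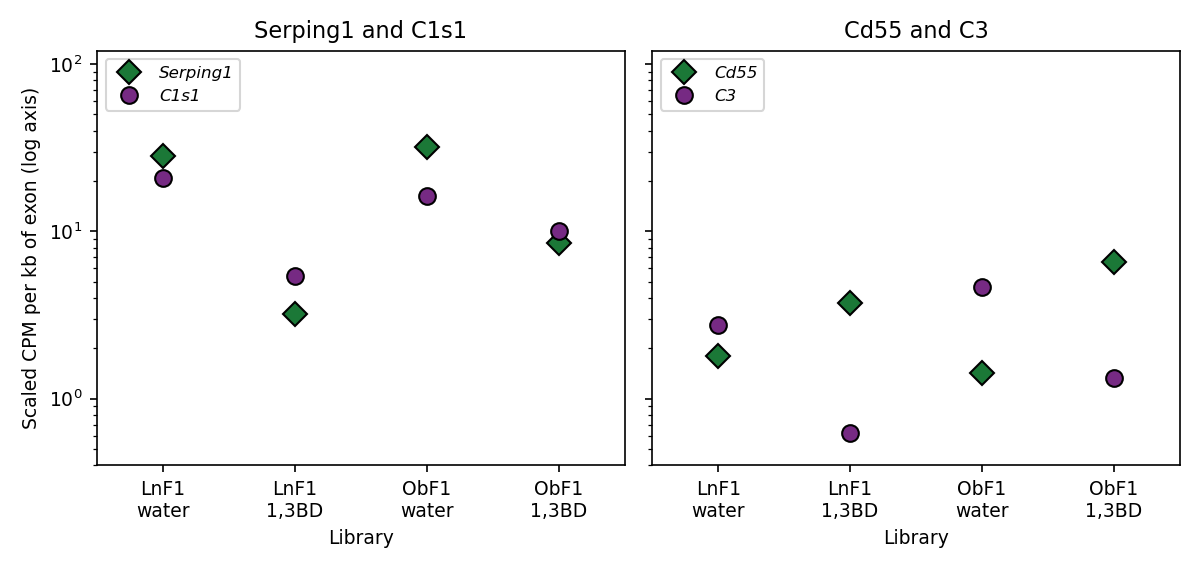
Scaled CPM per kb of exon (log axis) in the 4 libraries, 1 point per gene and library, for Serping1 with C1s1 and for Cd55 with C3. Serping1 is above C1s1 with water and below it with 1,3BD, and Cd55 is below C3 with water and above it with 1,3BD. Lengths are all annotated exon bases. With the longest coding transcripts the order would differ for Serping1 in ObF1 1,3BD and for Cd55 in LnF1 water.

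The recognition protein of the classical pathway is made mainly by macrophages. C1qa, C1qb and C1qc together stood at 4.07 CPM in LnF1 water and at 0.251, 0.478 and 0.112 CPM in LnF1 1,3BD, ObF1 water and ObF1 1,3BD, and none of the 3 passed the filter. The 6 macrophage markers summed to 26.2 CPM in LnF1 water and to 5.24, 16.2 and 9.60 CPM in the other libraries in that order, with Adgre1 at most 0.806 CPM. The LnF1 water library was thus the highest in both sums, and also for C1ra, C1s1 and C4b. Of the other tested genes of the 9, C3, Serping1 and C1qtnf2 were highest in ObF1 water and Cd55 in ObF1 1,3BD. The part of macrophages in C1ra, C1s1 and C4b was not tested.

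Genes known to act on complement transcription were followed in a list of 30, all of which passed the filter. With 1,3BD, 9 rose, 10 fell and 11 did not pass, where 19.2% of all genes tested were called higher and 24.8% lower. The counts take no account of what each product does, and so give no direction of signalling. Socs1 and Socs3 are among the genes that fell and Nfkbia is among those that rose. In place of 19 calls there were 8 without LnF1 water, 6 without ObF1 water and 10 without ObF1 1,3BD. Interferons and IL-6 raise the transcription of many complement genes, and of 16 genes of their signalling 5 rose and 8 fell. The fall was -1.69 (SE 0.23) for Irf9, -1.54 (SE 0.31) for Il6 and -1.37 (SE 0.26) for Irf1 on the log2 scale, while Jak2 rose by 1.68 (SE 0.19) and Irf2 by 0.89 (SE 0.24). Of 7 genes of NF-kB, IL-1 and TNF signalling, 2 rose, with the IL-1 receptor gene Il1r1 at 1.598 (SE 0.20), and 1 fell. Of 7 C/EBP and nuclear receptor genes, Pparg (1.42, SE 0.28) was among 2 that rose, and Cebpd fell (-1.20, SE 0.20). The limma adjusted p of the genes named here was at most 0.0110.

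The upstream sequence of 3 genes called for drink is shown because C3 and C1s1 fell and Cd55 rose. Each is the 250 bases before the RefSeq start site in GRCm38.p6, on the strand of the gene, from chr17:57228137-57228386 for C3, chr6:124542360-124542609 for C1s1 and chr1:130462745-130462994 for Cd55, all on the minus strand. Capitals mark matches to the C/EBP consensus TTNNGNAA on either strand.
C3: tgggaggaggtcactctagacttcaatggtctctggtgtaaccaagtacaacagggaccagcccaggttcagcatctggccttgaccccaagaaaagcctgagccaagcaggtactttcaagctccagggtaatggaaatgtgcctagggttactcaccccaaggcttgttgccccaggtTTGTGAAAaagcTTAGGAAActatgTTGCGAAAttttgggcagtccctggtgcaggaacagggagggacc
C1s1: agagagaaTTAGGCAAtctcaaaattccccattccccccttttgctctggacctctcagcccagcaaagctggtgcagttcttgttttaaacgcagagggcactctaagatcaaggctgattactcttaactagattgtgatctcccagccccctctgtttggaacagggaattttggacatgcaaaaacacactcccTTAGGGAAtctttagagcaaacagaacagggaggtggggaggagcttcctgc
Cd55: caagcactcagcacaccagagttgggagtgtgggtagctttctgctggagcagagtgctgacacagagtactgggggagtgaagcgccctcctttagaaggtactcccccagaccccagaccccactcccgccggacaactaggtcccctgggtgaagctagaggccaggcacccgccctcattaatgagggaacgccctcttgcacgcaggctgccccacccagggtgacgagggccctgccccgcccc
The window of C3 held 3 matches, at 70 to 63, 58 to 51 and 45 to 38 bases before the start, the last of which reads as a match on both strands. C1s1 held 2 matches and Cd55 held 0.

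RefSeq gave such windows for 6 of the 9 genes. C1ra, C1s1, C3 and C1qtnf2 held a C/EBP match and Cfd and Cd55 held none, where 36.8% of all 32851 windows of this length held one. The interferon motifs GAS (TTCNNNGAA, in 7.02% of windows) and ISRE (GAAANNGAAA, in 2.98%), and the NF-kB consensus (in 7.25%), were searched on both strands in the same 6 windows and gave no match. A match or its absence describes these letters only.

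The call for drink rests on few libraries. Fits that left out 1 library had to drop the parents as a covariate, and their lone library was taken to vary like the others. Without LnF1 1,3BD all 7 genes passed, and without ObF1 1,3BD 6 passed, with C4b short (log2 -0.97, limma adjusted p = 0.202). Without ObF1 water 5 passed, with C3 (log2 -1.57, limma adjusted p = 0.0756) and Cd55 (log2 1.44, limma adjusted p = 0.0540) short. Without LnF1 water 4 passed, with C1ra (log2 -1.48, limma adjusted p = 0.0511), C1s1 (log2 -1.13, limma adjusted p = 0.105) and C4b (log2 -0.84, limma adjusted p = 0.248) short. All 7 kept their direction in each of these fits, which for C1qtnf2 was set by how it passed the filter.

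By size within each parental group, 6 of the 7 tested genes were lower by at least 1 on the log2 scale in LnF1, where 16.4% of all genes were, and 1 was higher, where 10.7% were. In ObF1, 5 were lower and 1 higher, where 19.7% and 13.1% of all genes were. C1s1 was the gene that fell short in ObF1, at -0.69. Such differences between 2 libraries carry no p-value. Among the genes that fell, C1ra, C1s1, C4b, C3 and Serping1 had the larger fall in LnF1, while the rise of Cd55 was larger in ObF1, and neither was tested.

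The second question was how ObF1 differed from LnF1. C4b was lower in ObF1 in both drinks, and C3 and Serping1 were higher in both, but none passed. In limma 0 of the 7 tested genes were called, where 0.195% of all genes were called higher and 0.101% lower. At an unadjusted limma p under 0.05 there were 3, C4b, C3 and Serping1. The share of all genes at that unadjusted p is not given here, so these 3 cannot be set against the shares above. EdgeR, DESeq2 and limma voom also called 0 of the 7. The median log2 difference was 0.24 over the 7 genes and 0.0107 over all genes tested.

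C4b was 2.07-fold lower in ObF1 with water (95% counting interval 1.82 to 2.36) and 1.75-fold lower with 1,3BD (1.45 to 2.13), and its log2 difference, ObF1 minus LnF1, was -0.92 (SE 0.25, limma adjusted p = 0.197). Tnxb, its neighbour, was lower in ObF1 (log2 -1.49, SE 0.24, limma adjusted p = 0.0328). With limma's mean-variance trend off, or drink left out of the fit, 0 of all genes were called for parents. Tnxb lost its call there. C3 was 1.70-fold higher in ObF1 with water (1.48 to 1.95) and 2.13-fold higher with 1,3BD (1.64 to 2.77), or 0.92 in log2 units (SE 0.27, limma adjusted p = 0.228). Serping1 was 1.13-fold higher with water (1.05 to 1.21) and 2.66-fold higher with 1,3BD (2.26 to 3.14), or 0.79 in log2 units (SE 0.29, limma adjusted p = 0.367). The counting intervals leave out the spread between pools, which no comparison here measures.

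C1ra, C1s1 and Cd55 differed in direction between the drinks. Each was lower in ObF1 than in LnF1 with water, by 1.14-fold, 1.28-fold and 1.26-fold, and higher with 1,3BD, by 1.51-fold, 1.85-fold and 1.76-fold. C1qtnf2 had 234 reads in LnF1 and 231 in ObF1 with water, a ratio of 1.01 (95% counting interval 0.839 to 1.22). By size, 0 of the 7 genes were higher by at least 1 on the log2 scale in ObF1 with water and 1, C4b, was lower, where 3.04% and 2.8% of all genes were. With 1,3BD, C3 and Serping1 were higher by that much and C1qtnf2, on 0 against 3 reads, was lower, where 3.07% and 4.27% of all genes were.

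Among the 12 other complement genes that passed the filter, limma called 0 for parents. At an unadjusted limma p under 0.05 there were 3, Cd93 and Masp1 among them, again without a share of all genes beside it. EdgeR and limma voom called 0 and DESeq2 called 1. Of the 30 genes known to act on complement transcription, 1 was called, Cebpa (log2 -1.39, SE 0.22, limma adjusted p = 0.0283), which was lower in ObF1. Cebpa, like Tnxb, lost its call with limma's mean-variance trend off and with drink left out of the fit. Over all genes tested, 0.195% were called higher in ObF1 and 0.101% lower.

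**Figure D4:**
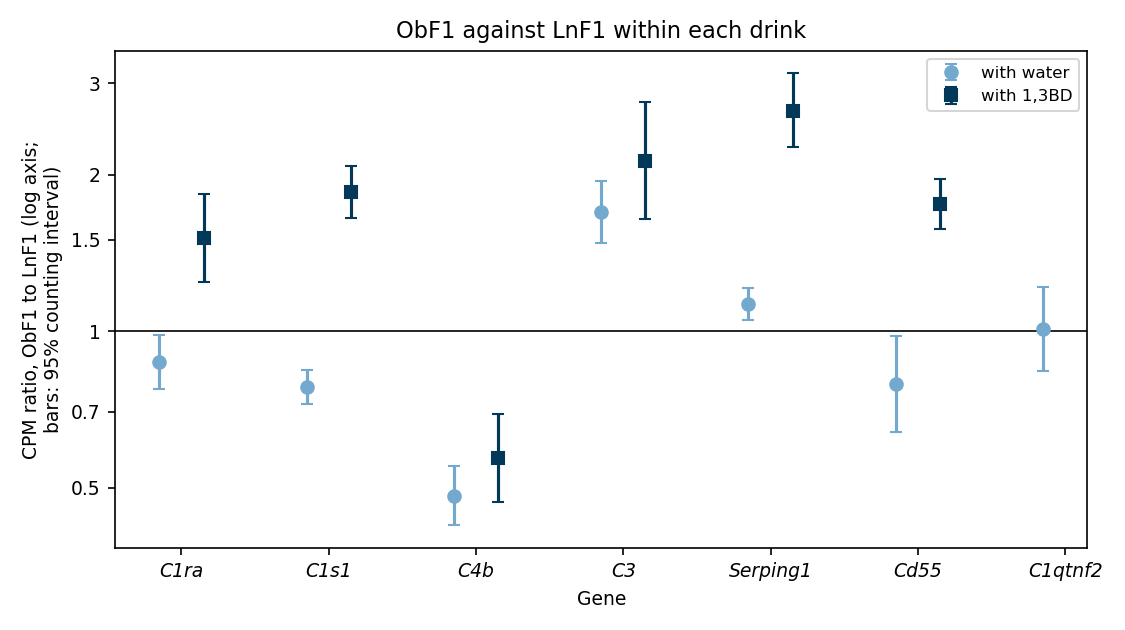
Ratio of ObF1 to LnF1 CPM (log axis) within each drink for the 7 tested genes, 1 library against 1, with 95% counting intervals as bars. C4b lies below 1 in both drinks, C3 and Serping1 lie above 1 in both, and C1ra, C1s1 and Cd55 change sides. C1qtnf2 with 1,3BD is not drawn, since ObF1 1,3BD had 0 reads.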

How the data were processed

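The authors deposited 1 table of 4 libraries, a scaled signal per gene. Per the submitters' processing notes the build was mm10, and edgeR and DESeq2 were named; the sources used here give no aligner, counter, annotation release or use of strand. Each deposited value was a whole multiple of its column's smallest value (100% within a relative tolerance of 1e-06), which gave reads per gene, 24586827 to 26000090 per library. The scaling implied by the columns equalled edgeR TMM factors computed on those reads (0.885 to 1.13), so the unit is CPM on TMM-scaled library sizes. Columns that name no drink were taken as water.

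The main test was limma 3.58.1 (R 4.3.3) on log2(CPM + 0.0796), a pseudocount worth 2 reads, which understates changes of low genes. The fit was additive in drink and parents, with trend and robust moderation and 1 residual degree of freedom. Its residual measures how far a difference in 1 stratum departs from that in the other, and says nothing of mice. The moderation then pulls each error toward that of genes of like level, so a printed SE is not a gene's own departure. The difference for drink was -1.93 in LnF1 and -0.69 in ObF1 for C1s1 (SE 0.29). For C4b it was -1.49 and -1.24 (SE 0.25). The fit held the 12838 genes that reached 1 CPM in 2 or more libraries, with Benjamini-Hochberg adjustment over all of them and a threshold of 0.05. The fit was tested on simulated data with known changes. Alternatives were edgeR 4.0.16 quasi-likelihood, DESeq2 1.42.0 and limma voom on the recovered reads (edgeR called 2401 genes higher and 3114 lower for drink, 24 and 14 for parents), other scalings, pseudocounts and filters, and leaving out each library. Counting intervals are exact conditional binomial intervals (95%). Exon lengths and positions are from GENCODE M21 (mm10), and promoters from RefSeq (GRCm38.p6).

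The genes and lists were chosen with earlier results of these data known. All 9 genes are named, with list genes past the threshold (at most 6 per direction by size), close relatives, neighbours, markers and those nearest in profile to C3 and Cfd. Gpr108 and Trip10, as neighbours, and Cr1l were named after their values were seen. Some list genes that count in the totals are not reported here by name.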

Additional observations from a re-analysis of the deposited data

Results flagged for a closer look

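In 4 genes the difference between ObF1 and LnF1 had opposite signs with water and with 1,3BD. On the log2(CPM + pseudocount) scale it was -0.19 with water and 0.59 with 1,3BD for C1ra, 0.78 apart, -0.36 and 0.89 for C1s1, 1.24 apart, and -0.33 and 0.81 for Cd55, 1.15 apart. For C1qtnf2 it was 0.0149 and -1.23, -1.25 apart, the latter on 0 reads against 3. Each value compares 2 libraries, so the difference between drinks was not tested.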

How the results depend on the processing

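No paired analysis was possible because the labels give no replicate numbers and each group is 1 library. For drink, 7 of the 9 genes were called under each of 13 alternatives that kept all libraries, and 4 to 7 when 1 library was left out. Of the 51 other complement genes 12 were tested and 6 called, and fewer were called whenever 1 library was left out. Without a filter 40 were tested and 13 called (2 higher, 11 lower). In that setting 2961 of all 26964 genes were called higher and 3848 lower. The genes it adds did not reach 1 CPM in 2 libraries. At a mean of at least 5 CPM 7 were tested and 3 called. For parents 0 of the other complement genes were called, and 1 without a filter and 1 with DESeq2. Calls for drink went from 19 to 6 to 19 among the 30 regulators and from 6 to 3 to 5 among the C1q-domain relatives with 1 library left out. With a pseudocount of 1 CPM, 1 of the 7 tested genes in place of 3 differed by at least 1 between ObF1 and LnF1 with 1,3BD. TMM factors recomputed from the reads equalled the deposited ones, so this alternative changed nothing. Apart from the pseudocount and filters, whose construction bears on low genes, the cause was not tested. Depth limits Cfb (17 reads in all), Cfd (12) and C1qtnf2 with 1,3BD (3).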
